A study of Mus musculus with 18 samples.

Results

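Small Cajal body-specific RNAs (scaRNAs) were examined in small RNA libraries from 3 brain cell fractions of wild-type and Atxn2 knock-in mice. Members were all rows of the count table whose type was scaRNA or whose name began with Scarna, and which held at least 1 count over the 18 libraries. This rule matched 38 rows, of which 25 held counts and 13 held none, out of 86922 rows with counts in all. Of the 25 members, 23 were typed scaRNA, while Scarna9 and Scarna10 were typed snoRNA. Only 6 carried a Scarna name and the other 19 were predicted genes with Gm names.

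The libraries came from C57BL/6 mice aged 10 months, either wild type (WT) or homozygous for the Atxn2-CAG100-knockin allele (KIN), which carries an expanded CAG repeat in Atxn2 and serves as a model of spinocerebellar ataxia type 2. Microglia, astrocytes and neurons were taken one after the other from each brain with magnetic beads (MACS): CD11b beads bound microglia, anti-ACSA-2 beads bound astrocytes, and neurons were what was left after beads against non-neuronal and CD31-positive cells. No treatment was given, and each of the 6 groups of fraction and genotype held 3 libraries, named replicates 1 to 3 in the labels. Per the methods, KIN and WT animals were compared as littermates of one sex, and both sexes were used. The labels give neither the sex of a library nor the libraries that form a littermate pair. The allele is carried by all cells of a KIN mouse and is not restricted to a cell type. In such fractions fewer cells of a type and less RNA per cell cannot be told apart.

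A scaRNA pairs with a spliceosomal small nuclear RNA (snRNA) and guides a ribonucleoprotein enzyme to a nucleotide to be modified. Box C/D scaRNAs carry a C box and a D box and guide 2′-O-methylation through fibrillarin, whereas H/ACA scaRNAs carry an ACA box near the 3′ end and guide pseudouridylation through dyskerin. Both kinds gather in Cajal bodies, coilin-marked nuclear domains that are prominent in neurons, and H/ACA scaRNAs get there by a short CAB box, usually UGAG, that is bound by Wrap53. Most vertebrate scaRNAs are cut out of the introns of a host gene.

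The 18 libraries held 1211118 to 4316748 counts, and the members took 2836 to 8536 of them. Library totals were lowest in neurons, and WT neurons replicate 1 was the shallowest. In microglia, WT replicate 2 and KIN replicate 1 stood apart from the rest of their groups. WT replicate 2 had 17884 features with counts against 27713 and 29541, and KIN replicate 1 had 13941 against 20324 and 19667. The chi-square per degree of freedom between replicates was 65.5 and 66.2 in the pairs with that WT library and 6.6 without it, and 116 and 121 in the pairs with that KIN library and 8.99 without it. WT astrocytes replicate 2 stood apart by less (28.3 and 34.1, against 5.64). In WT neurons no pair of replicates was close (129, 63.1 and 66.0). There tRNA rows took 2.94%, 10.6% and 4.54% of the counts in replicates 1 to 3. Marker microRNAs fixed for each cell type were compared with the labels. The 4 microglial markers summed to between 8507 and 22824 CPM (counts scaled to a common library size) in the microglia libraries and to at most 87 CPM in astrocytes and 462 CPM in neurons. The 4 markers of astrocytes and neural cells summed to 12076 to 23376 CPM in astrocytes, in CPM above every other fraction. As percent of microRNA counts they took 20.8% to 24.9% in astrocytes, 20.9% to 32.6% in neurons and 4.86% to 7.30% in microglia, so by that measure astrocytes and neurons overlap. The 5 neuronal markers, with miR-124-3p and miR-128-3p among them, went against the label: they summed to 40.6 to 203 CPM in the neuron libraries against 1209 to 3484 CPM in astrocytes, and took 0.565% to 1.27% of the microRNA counts in neurons against 1.28% to 3.93% in astrocytes. Markers of oligodendrocytes (1701 to 5524 CPM) and of ependymal cells and choroid plexus (1298 to 2905 CPM) were also highest in astrocytes in CPM. Endothelial markers summed to 4.3 to 600.4 CPM, mural markers to 20.8 to 359 CPM and erythroid markers to 16.5 to 252 CPM over the 18 libraries. "Neurons" below is therefore the name of the fraction and not a checked cell type.

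The sequences of the members on which the results turn are shown with their places in GRCm39, the build of the table, as 5′ to 3′ DNA read from the reference annotation (GENCODE vM39). Capitals mark an ACA 3 bases from the 3′ end, TGATGA within the first 20 bases and CTGA within the last 15 bases, and every TGAG on the printed strand, which can share letters with CTGA. Scarna8 (chr4:86504690-86504820, minus strand, an intron of Haus6) was the one member called between genotypes. Gm25492 (chr5:135082842-135082970, minus strand, within Bud23, exonic in some of its transcripts and intronic in others) held the most counts. Scarna9 (chr9:15237560-15237629, minus strand, an intron of Cep295) is the shortest. Gm22442 (chr11:69241344-69241487, minus strand, an intron of Chd3) differed between fractions.
Scarna8: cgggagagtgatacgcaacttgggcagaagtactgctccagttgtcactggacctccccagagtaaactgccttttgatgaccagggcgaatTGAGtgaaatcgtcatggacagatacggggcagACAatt
Gm25492: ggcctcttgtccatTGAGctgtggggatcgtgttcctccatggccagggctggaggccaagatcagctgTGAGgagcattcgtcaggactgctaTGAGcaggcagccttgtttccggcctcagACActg
Scarna9: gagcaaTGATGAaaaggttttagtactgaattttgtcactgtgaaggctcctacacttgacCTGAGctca
Gm22442: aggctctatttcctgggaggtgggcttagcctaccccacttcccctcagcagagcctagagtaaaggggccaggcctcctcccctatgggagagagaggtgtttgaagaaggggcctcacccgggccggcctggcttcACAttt

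The long members Gm22009 (chr3:68992438-68992780, minus strand, an intron of Kpna4, 343 bases) and Scarna10 (chr6:125163322-125163646, minus strand, within Ncapd2 and the lncRNA gene Gm28967, 325 bases), differed most between fractions. Their first and last 40 bases are shown, since the C box and the D box lie there.
Gm22009 first 40 bases: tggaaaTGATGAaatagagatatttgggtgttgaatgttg
Gm22009 last 40 bases: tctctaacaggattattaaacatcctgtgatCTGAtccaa
Scarna10 first 40 bases: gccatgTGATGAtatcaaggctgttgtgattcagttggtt
Scarna10 last 40 bases: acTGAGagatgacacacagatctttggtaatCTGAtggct

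Gm25820 and Gm23370 are shown as an example of members whose reads cannot be told apart with confidence. They share 122 bases (95.3% of the shorter).
Gm25820: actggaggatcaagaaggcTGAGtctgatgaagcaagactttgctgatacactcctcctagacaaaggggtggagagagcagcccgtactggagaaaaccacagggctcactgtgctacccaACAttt
Gm23370: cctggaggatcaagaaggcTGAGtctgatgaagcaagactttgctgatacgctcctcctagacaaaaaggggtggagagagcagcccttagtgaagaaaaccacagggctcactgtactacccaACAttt

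Of the 23 members on chromosomes used for this search, 11 held the ACA and 6 the C and D boxes at these positions, 17 in all (73.9%). The same letters at the same positions were in 38.2% of 1505 annotated snoRNAs, 0.941% of 1381 snRNAs and 3.27% of 2201 microRNA precursors. TGAG on the printed strand was in 16 of the 23 (69.6%), against 51% of snoRNAs, 24.6% of snRNAs and 39.4% of microRNA precursors, whose lengths differ from those of the members. The members ranged from 70 to 414 bases. In the annotation 16 lay within a protein-coding gene on the same strand, and 4 had no gene around them on the same strand.

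Counts were concentrated in few members. The 25 members held 113908 counts, of which the 6 most abundant took 67.9%. Gm25492 alone held 21941 (19.3%), Gm23751 in an intron of Chd4 held 19533, and Scarna9 held 10457. Per base of annotated length, the order was Gm25492 with 170 counts per base, Scarna9 with 149 and Gm23751 with 144, followed by Gm25443 and Scarna17 with 95.9 and 94.6. Scarna8, with 9158 counts, came sixth at 69.9 counts per base, and the 414-base Scarna2 fell to rank 10 at 21.2. The 17 most abundant members held 520 counts or more each, and the other 8 held 92 or fewer. Gm25058, Gm22897, Gm23119, Gm26183, Gm24718, Gm23386 and Gm23505 passed no filter on low counts in any comparison and are only named.

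Several members share their reads with a second row. Gm25820 (3678 counts), Gm23370 (576) and Gm22897 (19) each have an unnamed row at the same place whose sequence is identical over its whole length, with 3398, 516 and 15 counts. Scarna17 and Gm25443 share 73 bases (96.1% of the shorter) and had nearly equal totals, 7471 and 7292. Scarna10 (3669 counts) lies within the exons of an Ncapd2 retained-intron row (2394 counts) and of the Gm28967 row (1067). Values of these members are therefore uncertain as to which copy gave the reads. Counting ignored strand, so a read from the other strand of a member could be counted for that member.

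Together the members took a similar share of the library in most groups and a smaller one in KIN microglia. The share was 0.205% to 0.21% in WT astrocytes and 0.19% to 0.21% in KIN astrocytes, which overlap. In microglia it was 0.224% to 0.233% in WT and 0.159% to 0.166% in KIN, with no overlap. In neurons WT libraries spanned 0.209% to 0.27% and KIN libraries 0.197% to 0.248%, which overlap. As a percent of snoRNA, scaRNA and snRNA counts alone, microglia gave 0.826% to 0.918% in WT and 0.654% to 0.781% in KIN, again apart. The sum of the members scaled by trimmed means (TMM) over the 18 libraries was 2212, 2866 and 2221 CPM in WT microglia and 2039, 1910 and 2030 CPM in KIN microglia. No test was run on this sum, because it is a score over the members. In the same libraries tRNA rows took 8.53% to 11.3% of the counts in WT and 14% to 16.6% in KIN, and the snoRNA share was 23.1% to 25.3% in WT and 19.2% to 23.7% in KIN. The part of these shifts in the scaRNA share was not tested.

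**Figure D1:**
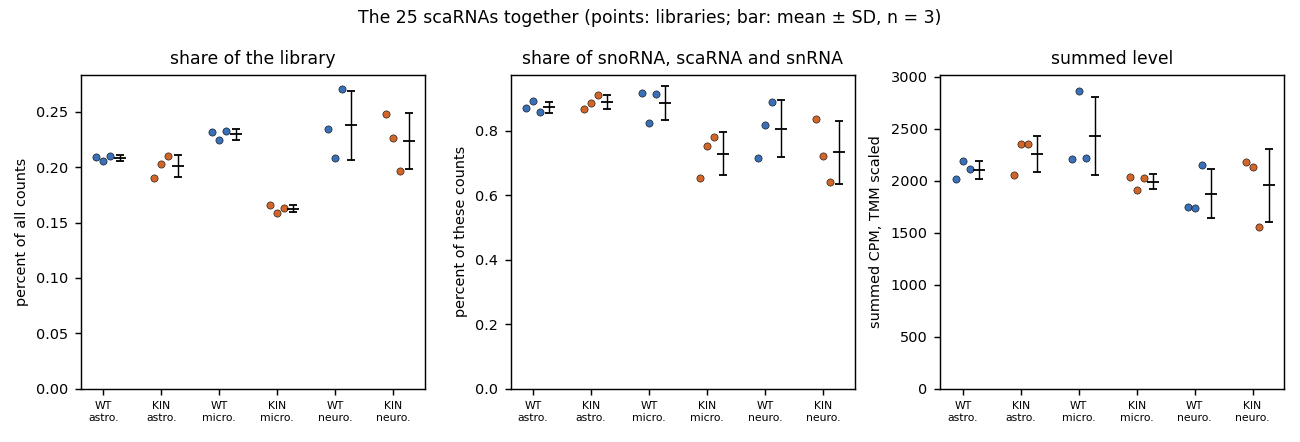
The 25 scaRNAs summed, in each of the 18 libraries (points; black bars are the mean ± SD of 3 libraries), as percent of all counts, as percent of snoRNA, scaRNA and snRNA counts, and as summed CPM; blue is WT and orange is KIN. The 3 KIN microglia libraries lie below the 3 WT microglia libraries in each panel, and the groups overlap in astrocytes and neurons.

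The first question was whether the knock-in allele changed scaRNA levels within a fraction. Here and below, "called" means that the edgeR quasi-likelihood test gave an adjusted p (Benjamini-Hochberg over all features tested) no higher than 0.05, with a log2 fold change of 1 or more in size. In KIN microglia 1 of 18 tested members was called, and it fell. In astrocytes 0 of 18 members were called and in neurons 0 of 17. Of all features tested, 4.35% were called in microglia, 8.18% in astrocytes and 0% in neurons, so the members' 1 of 18 in microglia is near the background. In astrocytes 466 features were called in all, and 1527 without WT replicate 2 and 41 to 78 without any other library. In microglia 215 were called in all, and 940 without WT replicate 2, 314 without KIN replicate 1 and 0 to 12 without any other library. The members called in those fits numbered 0 in astrocytes and 0 to 1 in microglia.

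Scarna8, an H/ACA-type guide known in humans as a guide for U2 snRNA, was the member that fell. It stood at 130, 149 and 144 CPM in WT microglia and at 57.4, 58.5 and 52.4 CPM in KIN microglia. Every KIN library lay below every WT library, and the log2 fold change was -1.32 ± 0.21 (SE, n = 3 and 3, edgeR adjusted p = 0.0174). In astrocytes the levels were 96.9, 81.8 and 104 CPM in WT and 98, 141 and 76.5 CPM in KIN, which overlap. In neurons, where it was highest, they were 348, 367 and 442 CPM in WT and 409, 402 and 269 CPM in KIN, which also overlap. The call in microglia did not hold when WT replicate 1, WT replicate 3, KIN replicate 2 or KIN replicate 3 was left out (edgeR adjusted p of 0.0816, 0.0805, 0.109 and 0.118), although the log2 fold change stayed between -1.45 and -1.25. It held without the libraries that stood apart, at -1.33 without WT replicate 2 and -1.43 without KIN replicate 1 (edgeR adjusted p of 0.00297 and 0.00965). With the replicate number as a block the adjusted p was 0.0629.

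Markers of other cells moved in the same libraries. The 5 neuronal microRNAs summed to 84.6, 161 and 163 CPM (lowest, median and highest) in WT microglia and to 65.7, 73.5 and 73.8 CPM in KIN microglia, and miR-124-3p among them fell by 1.28 on the log2 scale (edgeR adjusted p = 0.0485). The 4 microglial microRNAs summed to 8507 to 11172 CPM in WT and 15219 to 22824 CPM in KIN. Scarna8 was higher in neurons than in microglia, and the part of either marker shift in its fall was not tested. Its host gene Haus6, a subunit of the augmin complex of the spindle, held 18 counts in all libraries together, 3 in WT and 1 in KIN microglia, too few for any comparison.

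Other members of KIN microglia lay lower without passing the test. Of the 18 tested, 13 had a negative log2 fold change, with a median of -0.24 against -0.11 for all features. In 6 members the 3 KIN libraries lay below the 3 WT libraries and in 0 above, while 24.3% of all features had groups that did not overlap in either direction. Besides Scarna8 these were Gm22009 (-0.77 ± 0.21, edgeR adjusted p = 0.0626), Scarna17 (-0.69 ± 0.22), its near-copy Gm25443 (-0.53 ± 0.22), Gm25492 (-0.38 ± 0.20) and Gm22728 (-0.45 ± 0.32). Scarna17 stood at 94.9, 119 and 99.6 CPM in WT and 64.5, 57.4 and 70.3 CPM in KIN. Its adjusted p was 0.0896 (edgeR).

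Gm22009 had lower means in KIN than in WT in all 3 fractions. In microglia it stood at 154, 136 and 162 CPM in WT and 83.2, 91.1 and 90.6 CPM in KIN. In astrocytes it stood at 27.5, 33.5 and 31.8 CPM in WT and 24.5, 15.5 and 15.1 CPM in KIN, again without overlap (log2 fold change -0.77 ± 0.27, edgeR adjusted p = 0.0784). In neurons the values were 262, 146 and 259 CPM in WT and 122, 171 and 131 CPM in KIN, where the groups overlap (-0.81 ± 0.35, edgeR adjusted p = 0.917). None of the 3 comparisons passed the test. Its host Kpna4, an importin, held 95 counts in all, of which 25 were in WT and 14 in KIN microglia.

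In astrocytes 2 members reached an adjusted p of at most 0.05 at a fold too small to be called, against 11.7% of all features at that adjusted p. Gm25492, the most abundant member, stood at 279, 297 and 299 CPM in WT and 449, 459 and 455 CPM in KIN, which is 0.62 ± 0.10 higher on the log2 scale (edgeR adjusted p = 0.00903). The groups did not overlap. Scarna2, a long guide transcribed from its own gene in humans and here within an exon of the lncRNA gene Gm65135, stood at 216, 215 and 221 CPM in WT and 128, 128 and 142 CPM in KIN, a difference in log2 level of -0.72 ± 0.13 (edgeR adjusted p = 0.0111). Both lost that adjusted p in some fits without 1 library, where it ran from 0.00107 to 0.0624 for Gm25492 and from 0.000816 to 0.0681 for Scarna2. Without WT replicate 2, the library that stood apart, the values were 0.60 for Gm25492 and -0.77 for Scarna2. Marker sums moved in the same libraries. From WT to KIN astrocytes the 3 oligodendrocyte markers went from 1701 to 3238 CPM to 3885 to 5524 CPM, and the 4 ependymal and choroid plexus markers from 1298 to 2164 CPM to 2787 to 2905 CPM. The 4 microglial markers went from 20.5 to 37.3 CPM to 49.4 to 86.9 CPM, and the 4 markers of astrocytes and neural cells from 12076 to 18874 CPM to 20768 to 23376 CPM. In CPM none of these groups overlap, and the microRNA share of all counts was 5.05% to 8.30% in WT and 8.43% to 10.3% in KIN. As percent of microRNA counts, the markers of astrocytes and neural cells overlap (21.3% to 24.9% in WT, 20.8% to 22.1% in KIN). The ependymal and choroid plexus markers overlap too (2.44% to 2.76%, 2.60% to 2.95%). Oligodendrocyte (3.50% to 3.65%, 3.67% to 4.94%) and microglial markers stay apart, higher in KIN. By the same measure neuronal markers were lower in KIN without overlap (2.48% to 3.93% in WT, 1.28% to 2.00% in KIN). So were endothelial (0.678% to 0.729%, 0.260% to 0.447%) and mural markers (0.370% to 0.459%, 0.282% to 0.339%). In CPM the neuronal, endothelial and mural sums overlap, and erythroid markers overlap by both measures. The part of these shifts in the differences of Gm25492 and Scarna2 was not tested. In 8 of the 18 members the astrocyte groups did not overlap, 3 higher and 5 lower in KIN, beside 36.3% of all features. The median of the members was 0.08 against -0.19 for all features.

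Other abundant members did not pass the test in astrocytes. Gm23751 stood at 367, 463 and 377 CPM in WT and 412, 491 and 474 CPM in KIN. Scarna9 stood at 223, 217 and 216 CPM in WT and 158, 185 and 201 CPM in KIN, lower in every library but not past the test (-0.29 ± 0.13, edgeR adjusted p = 0.153). Gm25820 stood at 73.1, 72.1 and 72.7 CPM in WT and 85.8, 83 and 85.6 CPM in KIN (0.21 ± 0.16, edgeR adjusted p = 0.371). The groups overlapped for Gm23751 only. Gm22767, in an intron of Ppp1r8, was also apart, at 20.8 to 28.4 CPM in WT and 34.6 to 40.4 CPM in KIN (0.56 ± 0.22, edgeR adjusted p = 0.109).

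In neurons the replicates were spread more widely than in the glial fractions. The biological coefficient of variation of the fit was 0.405, against 0.233 in astrocytes and 0.308 in microglia, and the smallest adjusted p over all 4535 features tested was 0.917 (edgeR). At an unadjusted p under 0.05 there were 197 features and 1 member, Gm22009. Gm24289, an intronic member of Tipin, was the single member whose groups did not overlap, at 20.9, 52.7 and 50.5 CPM in WT and 88.5, 76.4 and 61.6 CPM in KIN, beside 12.3% of all features. Its log2 fold change of 0.75 ± 0.38 was not past the test.

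**Figure D2:**
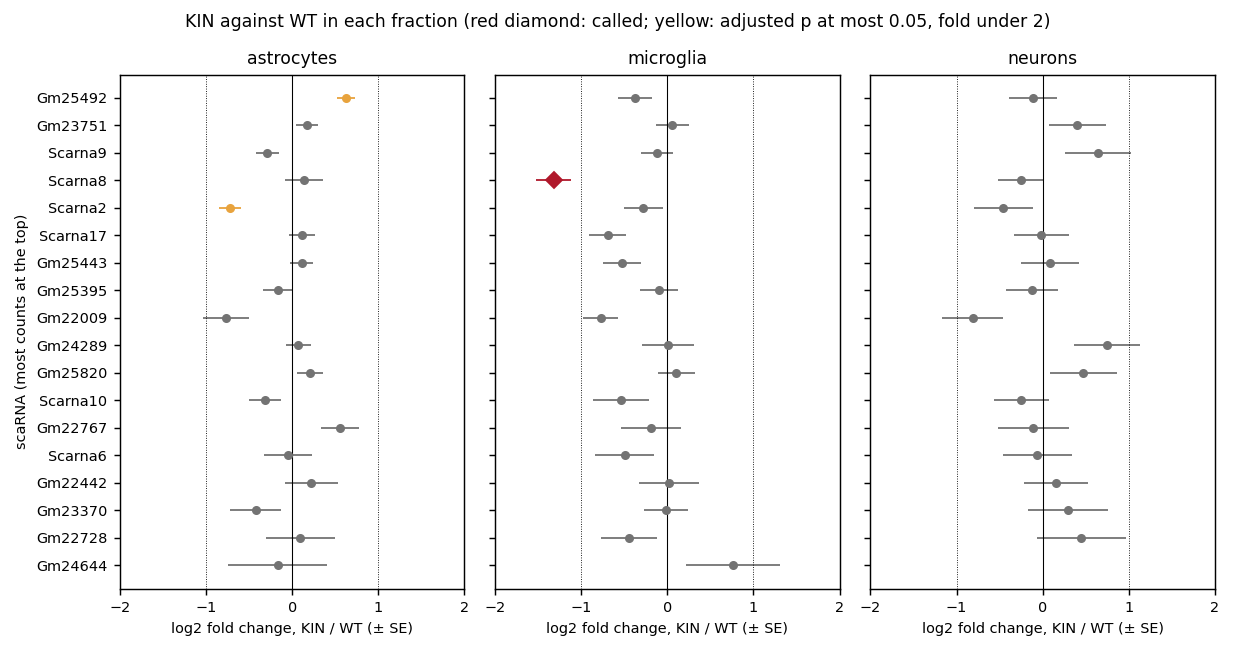
Log2 fold change of KIN against WT (x axis, bars are ± SE) for each tested scaRNA (rows, most counts at the top) in the 3 fractions; dotted lines mark an absolute log2 fold change of 1. Scarna8 in microglia, at -1.32, is the one point past both thresholds, and Gm25492 and Scarna2 in astrocytes reached the adjusted p at a smaller fold.

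Whether the genotype effect differed between fractions was tested as an interaction. Of the 18 members tested in each, 0 were called in microglia minus astrocytes, 0 in neurons minus astrocytes and 0 in neurons minus microglia, beside 0.312%, 0% and 0.639% of all features. At an unadjusted p under 0.05 there were 4, 1 and 1 members, beside 10.4%, 8.44% and 11.2% of all features. Scarna8 came nearest: its KIN effect was 1.46 ± 0.33 lower in microglia than in astrocytes on the log2 scale (edgeR adjusted p = 0.0601). DESeq2 called it (adjusted p = 0.0102), as it did in neurons minus microglia (adjusted p = 0.0429), where edgeR gave 0.43. Gm25492 rose in astrocytes without being called and had lower values in microglia, a difference of -1.01 ± 0.24 (edgeR adjusted p = 0.0685). Without WT astrocytes replicate 2 or KIN microglia replicate 1 both members were called, and without WT microglia replicate 2 Scarna8 was, with adjusted p between 0.0121 and 0.0341 (edgeR). Over all features 22 were called in this interaction, and 119, 112 and 362 in those fits in the same order.

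The second question was how scaRNA levels differ between fractions. Fractions were compared within WT and again within KIN, on other libraries, while the fractions of a genotype came from the same brains and each fraction enters 2 comparisons. The members fall below into those high in neurons, those high in astrocytes and those low in neurons.

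**Figure D3:**
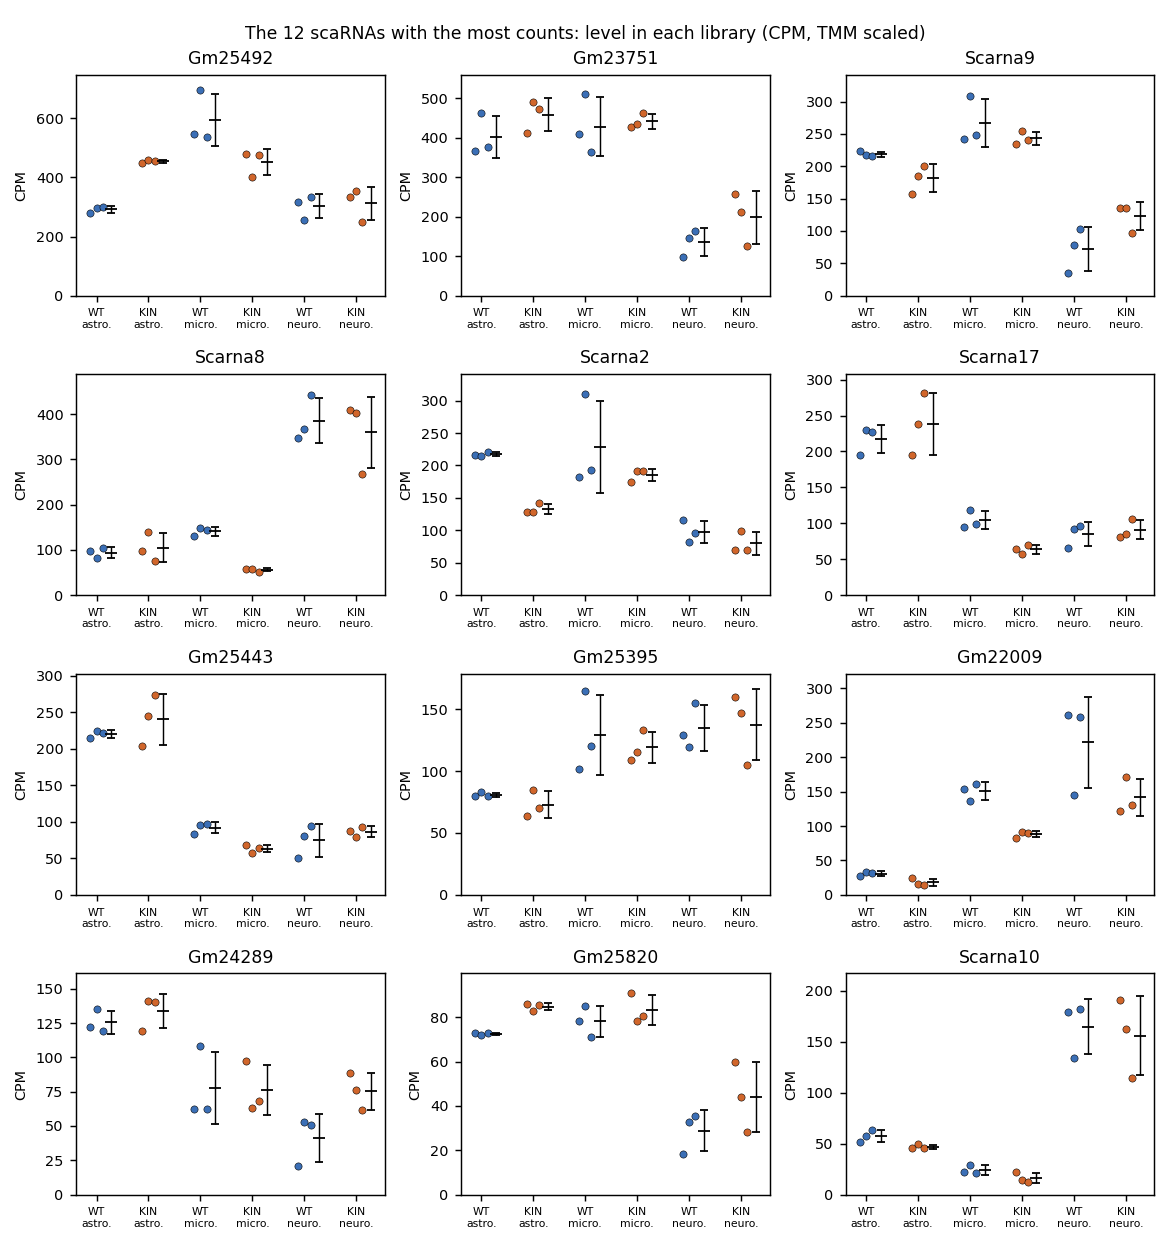
CPM in each library (points) of the 12 scaRNAs with the most counts, with the mean ± SD of 3 libraries (black); blue is WT and orange is KIN. Scarna8, Gm22009 and Scarna10 are highest in neurons, Scarna17 and Gm25443 are highest in astrocytes, and Gm23751, Scarna9, Gm25820 and Scarna2 are lowest in neurons.

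Scarna8, Scarna10, Gm22009, Gm22442 and Gm22728 were higher in neurons than in astrocytes in both genotypes. Scarna10, a guide with both C/D and H/ACA parts in humans, stood at 51.7, 57.6 and 63.6 CPM in WT astrocytes, 22.2, 29.4 and 20.8 CPM in WT microglia, and 179, 134 and 182.1 CPM in WT neurons. In KIN it stood at 45.3, 49.4 and 45.8 CPM in astrocytes, 21.9, 14.8 and 12.4 CPM in microglia, and 191, 163 and 114 CPM in neurons. The order of neurons, astrocytes and microglia held without overlap in both genotypes. Its log2 fold change in neurons against microglia was 3.02 ± 0.38 in WT (edgeR adjusted p = 0.000656) and 3.26 ± 0.34 in KIN (edgeR adjusted p = 2.62e-08). The Ncapd2 retained-intron row that overlaps it moved alike, by 2.91 in WT and 3.15 in KIN, and reads cannot be assigned to one of them.

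Gm22009 rose from astrocytes to both other fractions. Against astrocytes its log2 fold change was 2.34 ± 0.25 in WT microglia and 2.28 ± 0.25 in KIN microglia, and 2.99 ± 0.36 in WT neurons and 3.07 ± 0.26 in KIN neurons, each called. Neurons and microglia overlapped in WT (0.81 ± 0.38, edgeR adjusted p = 0.138). In KIN neurons were above microglia in every library at a fold too small to be called (0.70 ± 0.27, edgeR adjusted p = 0.0333).

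Scarna8 in neurons was 2.18 ± 0.27 above astrocytes in WT and 1.88 ± 0.22 in KIN on the log2 scale. Against microglia it was 1.68 ± 0.31 higher in WT and 2.69 ± 0.28 higher in KIN, the wider gap standing beside its lower KIN microglia level. Between the glial fractions its direction turned with genotype: microglia were 0.64 ± 0.22 above astrocytes in WT (edgeR adjusted p = 0.0468) and 0.90 ± 0.26 below them in KIN (edgeR adjusted p = 0.014), neither called at this fold. The interaction test of that turn is the value of 0.0601 given above.

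Gm22442, an intronic member of the chromatin remodeller gene Chd3, ran from 6.42 to 12.3 CPM in the 6 astrocyte libraries, from 19.4 to 35 CPM in microglia and from 31.6 to 68.1 CPM in neurons. Neurons were 2.46 ± 0.37 above astrocytes in WT and 2.48 ± 0.31 in KIN on the log2 scale. Its call in KIN neurons against KIN microglia (1.03 ± 0.35), where the groups overlap, held in 3 of 6 fits without 1 library (0.82 to 1.38). Gm22728, in an intron of G3bp2, ran from 2.14 to 4.02 CPM in the 6 astrocyte libraries and from 4.3 to 30.3 CPM in the 6 neuron libraries. WT neurons replicate 1, the shallowest library, gave its lowest neuron value, and the other 5 lay at 17.6 CPM or above. Its call in WT neurons against WT astrocytes held in 4 of 6 fits without 1 library, and that in KIN microglia against KIN astrocytes in 1 of 6, with log2 fold changes of 2.28 to 3.06 and 0.84 to 1.22.

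Scarna17 and Gm25443, box C/D members of near-identical sequence, were the astrocyte-high pair. Gm25443 stood at 214, 224 and 222 CPM in WT astrocytes, 83.7, 95.3 and 97.3 CPM in WT microglia, and 50.4, 80.3 and 94.7 CPM in WT neurons. In KIN it stood at 204, 244 and 274 CPM in astrocytes, 68, 57.6 and 64.3 CPM in microglia, and 87.3, 78.8 and 93.2 CPM in neurons. Both were lower in microglia and in neurons than in astrocytes in both genotypes, by log2 fold changes between -1.005 and -1.91, each called. The Scarna17 call in WT microglia, at -1.005, held in 2 of 6 fits without 1 library (-1.09 to -0.79), and that in WT neurons in 4 of 6 (-1.26 to -1.01). Neurons against microglia passed the test in neither genotype for either member.

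Gm23751, Scarna9 and Gm25820 stood at their lowest in neurons, as did Scarna2, given below. Gm23751 ran from 364 to 511 CPM in the 12 glial libraries and from 97.1 to 257 CPM in the 6 neuron libraries, without overlap. It was lower in neurons than in astrocytes by 1.42 ± 0.30 in WT and 1.11 ± 0.21 in KIN on the log2 scale, and than in microglia by 1.43 ± 0.33 and 1.14 ± 0.27, each called. Scarna9 stood at 35.7, 78.2 and 104 CPM in WT neurons and 135, 135 and 97.4 CPM in KIN neurons, below all 12 glial libraries at 158 to 309 CPM. It was called lower in WT neurons (-1.46 ± 0.39 against astrocytes, -1.66 ± 0.42 against microglia) and not in KIN neurons (-0.45 ± 0.21 and -0.97 ± 0.26). The difference between genotypes in that gap was not past the test in either interaction (edgeR adjusted p = 0.586 and 0.723). Gm25820 ran from 18.4 to 59.9 CPM in neurons, below all 12 glial libraries at 71.3 CPM or above, and was called lower in WT only (-1.19 ± 0.35 against astrocytes, -1.22 ± 0.39 against microglia), in 1 of 6 fits without 1 library each.

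The members named next were called in few of the comparisons of fractions. Gm24289 stood at 122, 135 and 119 CPM in WT astrocytes, 62.3, 108 and 62.7 CPM in WT microglia and 20.9, 52.7 and 50.5 CPM in WT neurons, where it was called lower than in astrocytes (-1.46 ± 0.39). Its KIN microglia and KIN neurons overlapped. Scarna2 stood at 181.9, 311 and 193 CPM in WT microglia and 116, 82 and 95.2 CPM in WT neurons, and at 175, 191 and 192 CPM in KIN microglia and 69.3, 99.7 and 70.4 CPM in KIN neurons. Its neuron libraries, at 69.3 to 116 CPM, lay below all glial libraries, at 128 to 311 CPM. Scarna2 was called lower in WT neurons than in WT astrocytes (-1.002 ± 0.29, in 1 of 6 fits without 1 library) and in KIN neurons than in KIN microglia (-1.20 ± 0.28). Gm25395, in an intron of Atg16l1, stood at 79.8, 82.8 and 79.8 CPM in WT astrocytes and 129, 119 and 155 CPM in WT neurons, and was called higher in KIN neurons alone (1.02 ± 0.22, in 2 of 6 fits). Scarna6, in another intron of Atg16l1, and Gm22767 were called in none of the 6 comparisons of fractions, where their log2 fold changes by edgeR lay between -0.61 and 0.77.

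Gm23370, an intronic member of the glycosyltransferase gene Mgat5, was the one with its highest level in microglia in both genotypes by a called difference against both other fractions. It stood at 16.7 to 22.1 CPM in the 6 microglia libraries, 5.03 to 8.25 CPM in astrocytes and 3.12 to 6.6 CPM in neurons. Its near-copy Gm25820, which holds more counts, did not share that pattern: it ran from 71.3 to 91.1 CPM in microglia and from 72.1 to 85.8 CPM in astrocytes. The reads of the near-copies were divided by the counting, so this contrast between them is uncertain.

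Gm24644, in an intron of Fbxo3, was at 0 counts in the 3 WT neuron libraries. Against the 3 counts that a count of 0 over the group allows, WT astrocytes (23 counts) were at least 3.45-fold higher and WT microglia (18 counts) at least 2.65-fold higher, relative to library totals. KIN neurons held 4 counts. Gm24644 was called lower in WT neurons than in WT astrocytes and WT microglia, and lower in KIN neurons than in KIN microglia. Of the fits without 1 library in which it was tested, these calls held in 2 of 4, 3 of 6 and 5 of 6. The bound covers counting error only.

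By count, 5 of 18 members were called higher and 3 lower in WT microglia than in WT astrocytes, beside 12.2% and 19.3% of all features. In KIN these were 4 and 3, beside 14% and 21.2%. WT neurons against WT astrocytes gave 5 higher and 8 lower, beside 10.2% and 18.5%, and KIN gave 6 and 3, beside 22.2% and 24.1%. WT neurons against WT microglia gave 2 higher and 5 lower, beside 13.5% and 14.5%, and KIN gave 4 and 4, beside 26.7% and 26.2%. The 13 members called in WT neurons against WT astrocytes dropped to 8 without WT astrocytes replicate 1 or WT neurons replicate 3 and to 6 without WT astrocytes replicate 3. Of the calls there, that of Scarna9 held in 4 and that of Gm24289 in 3 of 6 such fits. Among the calls that held in 5 of 6 were those of Gm25492 in WT microglia and Gm22442 in KIN microglia against astrocytes, and of Gm23751 in KIN neurons against each glial fraction. Without WT microglia replicate 2 the members called were 7 against WT astrocytes (8 with it) and 6 in WT neurons against WT microglia (7 with it), and without KIN microglia replicate 1 they stayed at 7 and 8. In WT neurons against WT astrocytes the median log2 fold change of the members was -0.34, also with Gm24644 at its bound, against -0.50 for all features.

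The WT and KIN comparisons share no library, so their calls can be set side by side. For microglia against astrocytes 7 members were called in both with the same sign, all 7 of those called in KIN and 7 of the 8 in WT, beside 27.4% of the features tested in both. For neurons against astrocytes 8 were called in both, of 13 in WT and 9 in KIN, beside 25.9% of features. For neurons against microglia 5 were called in both, of 7 and 8, beside 28.4% of features. Each of these counts is of 18 members. Gm25492 was the member called in WT microglia against astrocytes (1.08 ± 0.20) and not in KIN (0.01 on the log2 scale), where KIN astrocytes had the higher level given above.

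**Figure D4:**
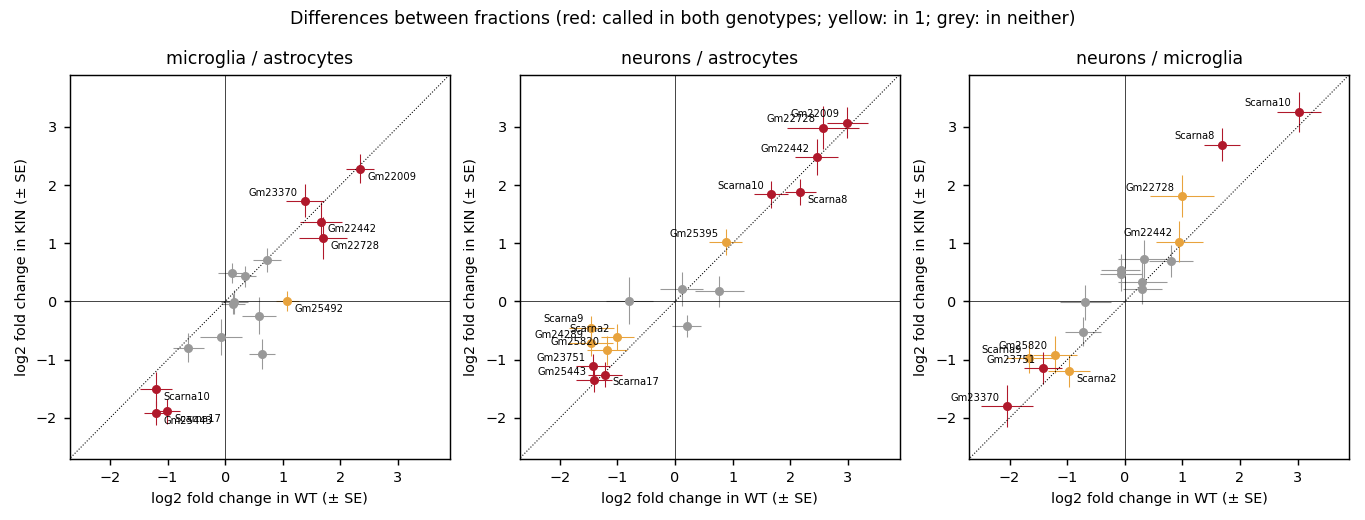
Log2 fold change between 2 fractions in WT (x axis) against that in KIN (y axis) for each tested scaRNA, with SE bars and a dotted line of equality; Gm24644 is left out because it was at 0 in WT neurons. Members called in both genotypes (red) number 7, 8 and, without Gm24644, 4 in the panels from left to right, and Scarna8 in the right panel lies above the line.

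The proteins and RNAs that scaRNAs work with were followed in the same table, where a messenger RNA is counted from short fragments. Of the Cajal body and SMN list (Coil, Smn1, the Gemin genes, Ddx20, Strap, Wrap53 and Nolc1), all 12 genes had counts, 166 in all, and 0 rows passed the filter in any comparison of genotypes or fractions. Of 6 H/ACA protein genes only a row of Dkc1, the pseudouridine synthase, was tested between genotypes, and it was not called. Of 4 box C/D protein genes 2 were tested, in 12 rows, and 0 were called between genotypes. Nop56-215, a retained-intron row with 13963 counts, had the smallest adjusted p of these (0.50 ± 0.13 in astrocytes, edgeR adjusted p = 0.0362), and snoRNAs lie in the introns of that gene. In neurons against astrocytes the Dkc1 row was called higher in WT (2.91 ± 0.74, edgeR adjusted p = 0.0217) and not in KIN (-0.997 ± 0.68, edgeR adjusted p = 0.219). The 19 rows of the H/ACA protein genes held 155 counts in all, so the Dkc1 values rest on few counts.

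Of the other RNP RNAs, rows of Rmrp and Rpph1, the RNAs of RNase MRP and RNase P, were tested (3 rows) and 0 were called between genotypes, while Terc and Rn7sk were not tested. Host genes were tested in 7, 4 and 11 rows in astrocytes, microglia and neurons and 0 were called. Rows typed snRNA or named Rnu were not selected as scaRNA targets. They gave 78, 81 and 74 tested features and 0 called in those fractions, with medians of 0.15, -0.01 and 0.19 on the log2 scale. Of the other snoRNAs 303, 294 and 295 were tested, and 2, 8 and 0 were called, each of them lower in KIN.

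Between fractions, host rows and members did not always move alike. In neurons against microglia 4 of 10 host rows were called higher in WT, and 7 of 9 were called higher and 1 lower in KIN. These rows came from 7 genes in WT and 5 in KIN. Of all features 13.5% were called higher in WT, and 26.7% higher and 26.2% lower in KIN. The host genes include Ncapd2 and Gm28967, whose rows overlap Scarna10, so their reads cannot be told from its own. Chd4 rows were among those higher, while the Chd4 member Gm23751 was called lower. Chd4-201, with 90 counts in all, was 3.43 above in WT (edgeR adjusted p = 0.00941) and 1.74 above in KIN (edgeR adjusted p = 0.0112). A Chd3 row with 44 counts was higher by 3.87 and 3.25 (edgeR adjusted p = 0.0249 and 0.00273), in the same direction as its member Gm22442. Cep295-214, a retained-intron row of the host gene of Scarna9, held 31708 counts, and Scarna9 lies outside its exons. The 14 Cep295 rows together held 31730, so nearly all lay in Cep295-214, and what gave its reads was not tested. Cep295-214 fell in microglia against astrocytes by 2.43 in WT and 1.88 in KIN. Scarna9 had values of 0.34 ± 0.20 and 0.43 ± 0.18 there and was not called.

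Among 3128 features tested in every genotype comparison, the 5 whose log2 CPM over the 18 libraries was most like the sum of the members were the snoRNAs Gm25394 (r = 0.811), Snord8 (r = 0.785), Gm22154 (r = 0.764) and Snord23 (r = 0.753) and the lncRNA row Snhg7-203 (r = 0.759). These are Pearson correlations over 18 libraries that share groups and depth, given as a description.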

How the data were processed

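Small RNA was sequenced from 18 libraries. Per the labels and the methods, the authors trimmed reads with Cutadapt 4.6 (minimum length 20), aligned them in turn to microRNA, tRNA, piRNA, Ensembl noncoding and cDNA sequences of mm39 with Bowtie2 2.4.4, and counted reads per transcript without strand with HTSeq 2.0.2. The deposited values used were these raw counts. Handling of molecular identifiers in the small RNA libraries is not given in the sources used here. The table also held the authors' normalised values (36 further columns in all) and columns of their own comparisons (fold changes and p-values), which were not used.

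Features that reached 5 counts in 2 or more libraries of a comparison were scaled by TMM and tested with edgeR 4.0.16 (R 4.3.3) quasi-likelihood fits, one for each comparison on its own libraries, with Benjamini-Hochberg adjustment over all features. Interactions used the 4 groups concerned. Printed CPM used TMM over all 18 libraries, and SE values are those of the fit. DESeq2 1.42.0, other scalings, no filter, a replicate block and leaving out each library were tried, and summing near-identical rows was added after seeing the data. The fits were tested on simulated data. Replicates differed beyond sampling noise (chi-square per degree of freedom of 5.64 to 129), so none was counted as a duplicate. Members, gene lists and markers were chosen with earlier results of these data known. Library values are given for the 12 members with the most counts and for called members between genotypes, ranges for others, and the most alike features are the 5 with the highest correlation. Intervals and bounds cover counting error only. Places are from GENCODE vM39, which held all 25 members.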

Additional observations from a re-analysis of the deposited data

Results flagged for a closer look

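Of the annotated scaRNA genes, 16 rows had neither a Scarna name nor the scaRNA type in the table and so lay outside the rule. The 10 rows with counts held 34831 in all. Of these 10, 9 are scaRNA transcripts in the annotation and 1 is an lncRNA transcript of Scarna3b with 221 counts. Another 3 of the 10 lie at the same place as a member. The Gm22813 row held 1 count and the Gm22897 row 15. The totals of the rows named next were far above the 3 counts that a count of 0 allows. The rows with over 1000 counts that share no place with a member were Scarna3a with 16274 counts, Scarna3b with 7158, Gm55431 with 3247, Gm54927 with 2329 and Scarna13 with 1672. In KIN against WT astrocytes the log2 fold change was 0.40 ± 0.10 for Scarna3a (edgeR adjusted p = 0.0380), 0.44 ± 0.13 for Scarna3b (edgeR adjusted p = 0.0538) and 0.71 ± 0.23 for Gm54927 (edgeR adjusted p = 0.0653). By edgeR none of these 5 was called between genotypes in any fraction. In microglia Scarna3a stood at 179, 449 and 177 CPM in WT and 509, 192 and 154 CPM in KIN, which overlap. The values of 449 and 509 CPM came from WT replicate 2 and KIN replicate 1, the microglia libraries that stood apart. Scarna3b was also highest in those libraries, at 206 and 211 CPM. The shares and sums of the members given above, lower in KIN microglia, leave these rows out. Groups of 3 were not searched for single libraries far from the rest.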

How the results depend on the processing

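Of 162 recomputed counts of called scaRNAs, 147 stayed within 1.5 times the value reported. In KIN against WT microglia 2 were called with library totals (Gm22009 added), 0 with the replicate block, and 0 to 1 without 1 library. In microglia minus astrocytes DESeq2 called 1, library totals 2, and fits without 1 library 0 to 2. In neurons minus microglia DESeq2 called 1, and WT neurons against WT astrocytes gave 6 to 13 without 1 library. The cause was not tested. Same-numbered libraries correlated between -0.213 and 0.147 in KIN against WT and between -0.199 and 0.302 between fractions. The highest values were 0.252 and 0.302 in WT microglia against WT astrocytes (replicates 1 and 2) and 0.244 in WT neurons against WT astrocytes (replicate 2). The numbers were not taken as pairs. Fraction fits and interactions without the replicate block therefore treat libraries that can come from the same brain as independent. The replicate block moved all features called in KIN against WT microglia from 215 to 49, and DESeq2, the snoRNA total, no filter and 1 fit of 18 libraries gave 378, 142, 426 and 334. That fit called 159 in astrocytes (466 reported), and no filter called 75 in neurons (0 reported). All features called in microglia minus astrocytes numbered 22, and 136 by DESeq2, 53 with library totals, 12 with the snoRNA total and 61 with the block. In neurons minus microglia 41 became 139 by DESeq2 and 0 with the snoRNA total. The no-filter fit was not run for the interactions.

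Library totals moved the median of all features in KIN against WT from -0.19 to -0.31 in astrocytes and from -0.11 to -0.33 in microglia, and the members then split into 5 higher and 13 lower, and 1 higher and 17 lower. Of the calls over all features in microglia, 32.6% were higher, against 19.3% with library totals, 45.1% with the snoRNA total and 14.1% in 1 fit of 18 libraries. In astrocytes 21.9% were higher, against 33.8% by DESeq2, 11.8% with library totals and 44.7% with no filter.

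Directions turned only for uncalled differences near 0. In astrocytes library totals gave -0.0014 for Scarna8, -0.018 for Scarna17, -0.024 for Gm25443 and -0.058 for Gm24289, and no filter gave 0.062 for Gm25395. Without 1 library these ran from -0.13 to 0.31 for Scarna8, -0.029 to 0.24 for Scarna17, -0.0013 to 0.21 for Gm25443 and -0.0041 to 0.15 for Gm24289. In microglia library totals gave -0.16 for Gm23751, -0.21 for Gm24289 and -0.13 for Gm25820. Gm24289 was -0.016 with the snoRNA total, -0.053 with no filter, -0.0018 with the replicate block and -0.028 in 1 fit of 18 libraries. Without 1 library the ranges were -0.069 to 0.15 for Gm23751, -0.32 to 0.055 for Gm25395, -0.31 to 0.26 for Gm24289 and -0.057 to 0.20 for Gm25820. In neurons no filter gave 0.097 for Gm25492, 0.15 for Scarna17 and 0.081 for Gm25395, and 1 fit of 18 libraries gave 0.046, 0.10 and 0.031. Scarna17 was 0.016 by DESeq2 and 0.035 with near-identical rows summed. Without 1 library Scarna17 ran from -0.29 to 0.10 and Gm25443 from -0.12 to 0.30.

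Without the most abundant member the mean scaRNA share was 0.179% in WT and 0.161% in KIN astrocytes, 0.174% and 0.126% in microglia, and 0.199% and 0.188% in neurons. As percent of snoRNA, scaRNA and snRNA counts it was 0.874%, 0.889%, 0.887%, 0.729%, 0.808% and 0.734% in the same order. A count of 0 allowed up to 0.695 to 2.48 CPM in a library, which limits the 8 members with 92 counts or fewer.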
